A study of Homo sapiens with 12 samples.

Results

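The genes described here are the 638 genes of chromosome 18 among the 60483 genes counted in total RNA, of which 39481 could be placed on a chromosome through RefSeq. They comprise 259 coding and 379 noncoding genes. The chromosome was chosen from the same comparison that is described below, mut against WT total RNA, so the values of that comparison are a description of the chromosome and no test of it. After the filter on low counts 205 members remained, 184 coding and 21 noncoding. Of the 75 coding genes left out, 29 had no read in any of the 6 libraries and 46 had a few. Of the 358 noncoding genes left out, 258 had no read and 100 had a few.

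The cells were HEK293, an established human embryonic kidney line, carrying a doxycycline-inducible cassette in the Flp-In T-REx system. In both groups the cassette made recoded DIS3L2 with a C-terminal FLAG tag together with sh-miRNAs against the endogenous DIS3L2 mRNA, and in both it was induced with 100 ng/ml doxycycline for 3 days. The WT group made the wild-type enzyme and the mut group its catalytic mutant, with 3 rRNA-depleted, strand-specific total RNA libraries and 3 gel-selected small RNA libraries each. The labels do not say whether each variant came from 1 or several lines, or whether replicates were separate cultures, so the variant and the line that carries it cannot be told apart, and a p-value reflects only how these 6 libraries vary, possibly for technical reasons.

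DIS3L2 is a cytoplasmic exoribonuclease that degrades RNA from the 3′ end and prefers RNAs with an added uridine tail. Chromosome 18 is among the chromosomes with the fewest genes for their length, and it carries the SMAD signalling genes SMAD2, SMAD4 and SMAD7, a cluster of desmosomal cadherins, the thymidylate synthase gene TYMS and the survival gene BCL2. HEK293 is an aneuploid line. The files used here measure RNA and hold no measurement of DNA.

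The 4 promoters printed next belong to SALL3, KC6, APCDD1 and ZNF519. SALL3 and KC6 had no read in any WT library, and APCDD1 was the coding gene next in size of difference. ZNF519 is a coding gene whose mut libraries all lay below the WT libraries. It was neither the lowest coding gene nor called. Each run is the 250 bases before the annotated start, from RefSeq (GRCh38.p14), read 5′ to 3′ on the strand of the gene. They lie at chr18:78979568-78979817 (SALL3, plus strand), chr18:41520678-41520927 (KC6, minus strand), chr18:10454385-10454634 (APCDD1, plus strand) and chr18:14132436-14132685 (ZNF519, minus strand). Capitals mark matches, on this strand or in reverse complement, to a TATA box with the letters TATAAA, to a CCAAT box with the letters of its name, and to a GC box with the letters GGGCGG.
SALL3: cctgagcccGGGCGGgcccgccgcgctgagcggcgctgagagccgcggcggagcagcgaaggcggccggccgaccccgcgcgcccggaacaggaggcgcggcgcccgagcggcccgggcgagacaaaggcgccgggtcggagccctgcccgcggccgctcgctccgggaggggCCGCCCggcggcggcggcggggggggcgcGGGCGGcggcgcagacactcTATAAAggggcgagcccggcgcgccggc
KC6: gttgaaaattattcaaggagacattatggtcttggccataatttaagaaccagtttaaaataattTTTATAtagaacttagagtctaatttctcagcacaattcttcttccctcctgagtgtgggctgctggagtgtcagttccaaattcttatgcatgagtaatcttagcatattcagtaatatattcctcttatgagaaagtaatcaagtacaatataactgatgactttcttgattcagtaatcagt
APCDD1: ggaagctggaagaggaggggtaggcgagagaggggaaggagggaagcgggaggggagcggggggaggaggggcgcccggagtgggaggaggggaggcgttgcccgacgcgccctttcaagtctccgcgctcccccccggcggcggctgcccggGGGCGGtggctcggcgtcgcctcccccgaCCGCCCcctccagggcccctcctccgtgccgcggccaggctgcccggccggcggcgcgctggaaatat
ZNF519: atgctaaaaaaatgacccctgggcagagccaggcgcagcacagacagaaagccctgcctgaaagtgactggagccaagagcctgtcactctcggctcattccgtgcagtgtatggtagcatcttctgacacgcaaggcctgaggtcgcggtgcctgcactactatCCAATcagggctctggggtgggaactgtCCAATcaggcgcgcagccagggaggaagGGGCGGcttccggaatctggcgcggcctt
The SALL3 promoter held 49 CpG dinucleotides at 84.4% GC, with 3 GC boxes and 1 TATA box. The KC6 promoter held 0 CpG at 32.4% GC, and its 1 match was a TATA box on the opposite strand. APCDD1 had 29 CpG and 2 GC boxes, and ZNF519 had 12 CpG, 2 CCAAT boxes and 1 GC box. The 2 genes without WT reads thus had promoters at opposite ends of base composition. RefSeq promoters were matched to 159 of the 184 tested coding genes of the chromosome (259 promoters, since a gene can have several). These had a median of 21 CpG and 65.6% GC, and 8.11% held a TATA box, 27.0% a CCAAT box and 61.4% a GC box. Promoters of tested coding genes elsewhere had a median of 20 CpG and 64.8% GC, with 5.83%, 33.4% and 63.8% holding the same motifs, and over all 35116 promoters of the table the shares were 10.7%, 32.0% and 42.6%. A match is a string of letters and not a measured site.

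Each total RNA library held between 8315986 and 12675042 counts in genes. DIS3L2 reads, which may come from the cassette or the endogenous gene, stood at 1040 to 1144 CPM (counts scaled to library size) in mut and 763 to 813 CPM in WT libraries. Of 8 genes used as markers of HEK293, such as the neurofilament gene NEFL, 6 reached a mean of 1 CPM, and their summed level was 285 to 310 CPM in mut and 259 to 281 CPM in WT. The blood markers CD3E and HBB were at 0 in all 6 libraries. Summed levels of the fibroblast and epithelial markers were higher in mut libraries. For 3 fibroblast genes they were 4.48 to 6.70 CPM against 2.59 to 3.52 CPM. For the 2 epithelial genes EPCAM and CDH1 they were 56.7 to 61.7 CPM against 37.4 to 41.8 CPM. The part of these differences in the results on chromosome 18 was not tested. In bulk RNA, more RNA per cell and more cells of a kind cannot be told apart.

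Coding genes of chromosome 18 were higher in mut cells by a small amount, with a median of 1.22-fold. The share of all gene counts that fell on the chromosome was 1.05%, 1.12% and 1.08% for mut and 0.899%, 0.864% and 0.878% for WT. Every mut library was above every WT library. The mean shares were 1.08% ± 0.0367 and 0.881% ± 0.0176 (SD, n = 3), a ratio of 1.23 ± 0.0484. Without ATP5F1A, the most counted gene of the chromosome, the ratio was 1.22.

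Gene by gene, the difference is given as the log2 fold change of mut over WT, in which 0 is no difference and 1 is a doubling. Its median over the 184 tested coding genes was 0.28, a 1.22-fold higher level, with quartiles of 0.18 and 0.41. The median over the 11981 tested coding genes of other chromosomes was -0.01, with quartiles of -0.17 and 0.15. Because this comparison chose the chromosome, calls only sort its genes, and an adjusted p of a single gene is printed only where it lies near the threshold or moved across it in an alternative. A gene was called higher or lower when the adjusted p of edgeR's quasi-likelihood test over all tested genes was under 0.05. On chromosome 18, 113 coding genes were called higher and 0 lower. Of all 14409 genes tested, 13% were called higher and 14.2% lower.
At an unadjusted p under 0.05, 127 coding genes of the chromosome were higher and 2 lower, and DESeq2 called 92 higher and 0 lower. The shares over all genes at that threshold and with DESeq2 are not given here, so these counts lack a background.

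**Figure D1:**
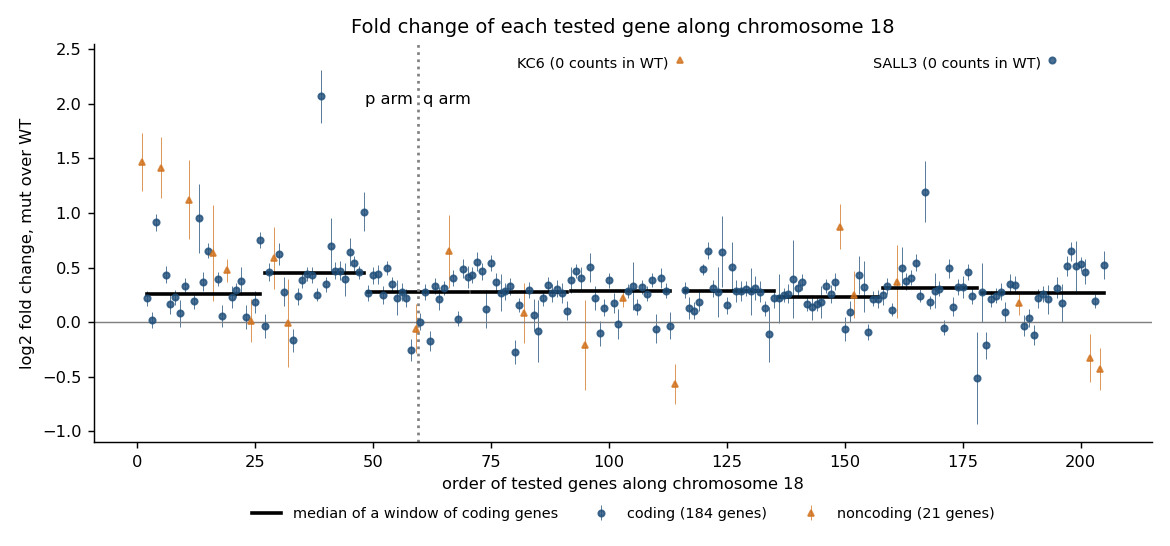
Log2 fold change of mut over WT (vertical axis) for the 205 tested genes in their order along chromosome 18 (horizontal axis), with standard errors as thin bars. Coding genes are circles, noncoding genes are triangles, black lines are medians of windows of coding genes, the dotted line parts the arms, and SALL3 and KC6, drawn at the top edge without error bars, lie off the scale because WT had 0 counts. The window medians run between 0.23 and 0.45 from end to end.

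The interquartile range of the log2 fold changes of the coding genes was 0.22, against 0.32 for coding genes elsewhere, which pool chromosomes of different medians. Single chromosomes came close to it, with 0.24 for chromosome 22, 0.25 for chromosome 20 and 0.26 for chromosome 17. Expressed as a standard deviation from the quartiles it was 0.167, and 0.144 remained after the standard errors of the fit (median 0.08) were taken out, so the genes differed among themselves by more than measurement error. The same value was 0.222 for coding genes elsewhere. Between equality and 1.5-fold higher lay 152 genes (82.6%), 14 were more than 1.5-fold higher, 4 more than 2-fold higher and 0 more than 1.5-fold lower. Of the 11981 coding genes elsewhere, 44.5% lay between equality and 1.5-fold higher. Among them 389 were more than 1.5-fold higher, 88 more than 2-fold higher and 304 more than 1.5-fold lower. In 127 coding genes of chromosome 18 all 3 mut libraries lay above all 3 WT libraries, in 2 below, and in 55 the groups overlapped. Over all tested genes the groups were separated upward in 19.4% and downward in 21.2%, and over coding genes elsewhere in 19% and 22.3%.

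Each library showed the same picture on its own. Against the mean of the WT libraries, the median log2 difference over the coding genes was 0.24, 0.33 and 0.29 in mut libraries and 0.02, -0.04 and 0.03 in WT libraries. On the p arm the mut medians were 0.32, 0.38 and 0.34, and on the q arm 0.22, 0.32 and 0.27. The mut libraries were thus ordered alike on both arms, with replicate 2 highest, and WT replicate 2 was lowest on both.

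**Figure D2:**
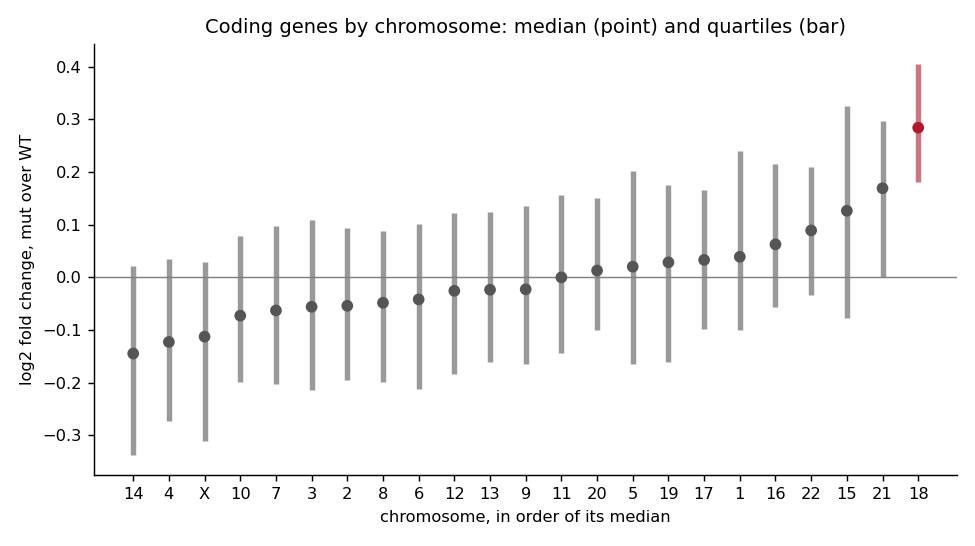
Median (point) and quartiles (bar) of the log2 fold change of mut over WT (vertical axis) over the tested coding genes of each chromosome, ordered by the median (horizontal axis). Chromosome 18, in red, is at the right end with a median of 0.28, followed by chromosome 21 at 0.17.

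Among the other chromosomes, 21 came next with a median of 0.17 (39 of 109 coding genes called higher and 2 lower), then 15 with 0.13 (123 higher and 41 lower of 404). Chromosome 14 was lowest at -0.14. The lower quartile of chromosome 18, at 0.18, was above the medians of all the other chromosomes plotted.

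Along the chromosome the difference was present from one end to the other. The first coding gene of the p arm is USP14, which encodes a deubiquitinase of the proteasome. It stood at 131, 129 and 121 CPM in mut and 119, 101 and 108 CPM in WT libraries, so the groups did not overlap (log2 fold change 0.22, SE 0.07, edgeR adjusted p = 0.0173). The call was lost without WT replicate 2 or without WT replicate 3, with an adjusted p up to 0.101. The last gene of the q arm is PARD6G, a cell polarity gene, with 16, 13.4 and 12.8 CPM in mut and 9.62, 9.24 and 10.7 CPM in WT. All its mut libraries were above its WT libraries (0.52, SE 0.13). The 2 tested coding genes next to the centromere were not called higher, unlike most. ZNF519, a zinc finger gene and the last tested coding gene of the p arm, read 16.3, 19.6 and 20.6 CPM in mut and 22.4, 21.3 and 24.1 CPM in WT, and ROCK1, a protein kinase gene and the first of the q arm, read 58.8, 68.1 and 66.6 CPM in mut and 64.8, 58.0 and 71.1 CPM in WT. The ZNF519 libraries were lower in mut without overlap and those of ROCK1 overlapped, with log2 fold changes of -0.26 and 0.00. The 10 genes on each side of the centromere had medians of 0.27 and 0.29.

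The 184 coding genes were divided by position into 9 windows of 20 successive genes, the last with 24. From the p end the window medians of the log2 fold change were 0.26 (USP14 to LAMA1), 0.45 (PTPRM to PRELID3A), 0.27 (SPIRE1 to TMEM241), 0.28 (RIOK3 to TRAPPC8), 0.29 (RNF125 to KIAA1328), 0.28 (PIK3C3 to RPL17), 0.23 (LIPG to WDR7), 0.31 (ONECUT2 to HMSD) and 0.27 (SERPINB8 to PARD6G). Of these, 8 lay between 0.23 and 0.31, and the second, at 0.45, was set apart. In all 9 windows the 3 mut library medians were above the 3 WT library medians. The same count was not made for windows of other chromosomes, so it has no background. The SD of the window medians was 0.0625 on chromosome 18 and 0.138 over 588 windows of coding genes on other chromosomes, which ran from -0.52 to 0.48, 263 of them above 0. Those 588 windows pool chromosomes of different medians, so their SD is not a measure of evenness within a chromosome.

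**Figure D3:**
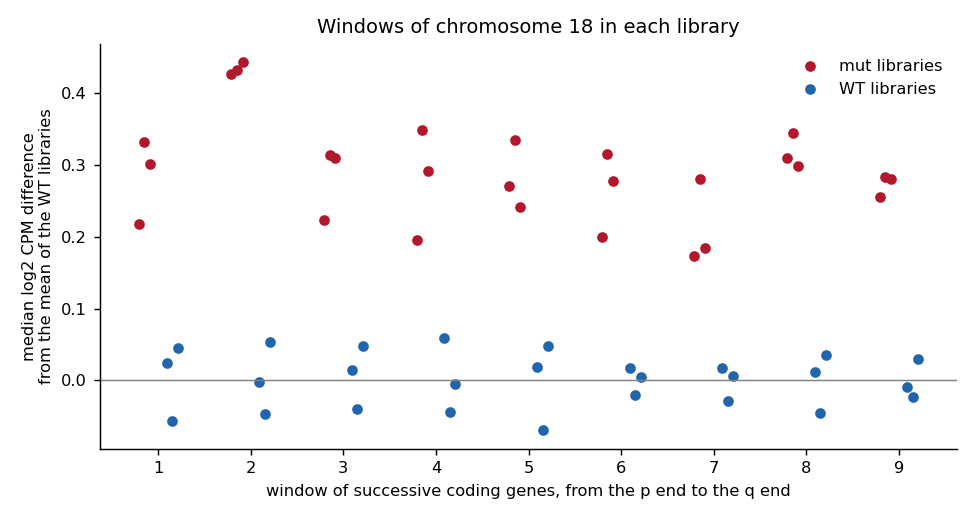
Median log2 CPM difference from the mean of the WT libraries (vertical axis) in each of the 9 windows of coding genes from the p end to the q end (horizontal axis), with 1 point for each of the 3 mut (red) and 3 WT (blue) libraries. The red points lie above the blue points in every window, and those of window 2 are the highest, at 0.43 to 0.44.

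Windows as high as those of chromosome 18 occurred elsewhere without filling a chromosome. Of the 588 other windows, 25 reached the lowest median of chromosome 18: 12 on chromosome 1, 6 on chromosome 15, 5 on chromosome 5, and 1 each on chromosomes 6 and 21. Chromosome 1 windows ranged from -0.25 to 0.45 (SD 0.163) and chromosome 15 windows from -0.17 to 0.48 (SD 0.196), against an SD of 0.0715 for the 5 windows of chromosome 21, which ran from 0.05 to 0.25. Chromosome 21, though shorter in windows, was about as even as chromosome 18 by this measure. These are descriptions of windows that share 6 libraries.

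By arm, the 50 coding genes of the p arm had a median of 0.36 (1.28-fold) with 37 called higher, and the 134 of the q arm a median of 0.28 (1.21-fold) with 76 called higher. Both arms had 0 called lower. The first window, wholly on the p arm, was at 0.26, so the arms differed mostly in the second window. With windows of 10 genes the medians ran from 0.22 to 0.51, the highest spanning APCDD1 to PRELID3A. The stretch around it was unbroken: from TWSG1 to RNMT (start 9334773, end 13764556) 24 successive coding genes had log2 fold changes above 0, the longest such run. In the 21 of them from TWSG1 to CEP192 every mut library was above every WT library. Over the whole chromosome 166 of the 184 tested coding genes (90.2%) were above 0, and in 127 the mut libraries lay wholly above WT. Over all tested genes these shares were 48.7% and 19.4%. The runs were picked from these same values, and whether such shares give runs of this length in random order was not tested.

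Members of that stretch have unrelated roles. APCDD1, an inhibitor of Wnt signalling, gave 5.14, 6.22 and 5.29 CPM in mut and 0.931, 1.25 and 1.84 CPM in WT libraries, 145 against 40 counts in all. Its lowest mut library was far above its highest WT library (log2 fold change 2.07, SE 0.24). PRELID3A, of the family of intermembrane lipid transfer proteins of mitochondria, gave 5.92, 6.22 and 6.32 CPM against 3.10, 2.98 and 3.07 CPM, also without overlap (1.01, SE 0.18). TUBB6, a beta-tubulin gene, gave 147, 136 and 128 CPM against 93.7, 99.0 and 89.9 CPM (0.54, SE 0.07). Next to it AFG3L2, a protease of the inner mitochondrial membrane, gave 146, 146 and 153 CPM against 109, 106 and 108 CPM (0.46, SE 0.06). TUBB6 and AFG3L2 overlap in the annotation, and reads in several genes were not counted for either. VAPA, an anchor protein of the endoplasmic reticulum at membrane contacts, had the smaller difference of 0.25 (151, 147 and 157 against 131, 123 and 128 CPM), and CEP192, a centrosome scaffold, 0.35 (177, 195 and 196 against 151, 149 and 146 CPM). These 6 genes lie in the run from TWSG1 to CEP192, which was defined by mut libraries wholly above WT. Their lack of overlap follows from that choice and is no further result.

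The 18 coding genes with a log2 fold change below 0 were scattered. They were PTPRM, ANKRD12, ZNF519, ESCO1, ZNF521, CHST9, NOL4, ZSCAN30, MOCOS, KIAA1328, C18orf32, POLI, TCF4, RELCH, HMSD, CDH7, ZNF407 and TSHZ1, and no 2 of them were neighbours among the tested coding genes. Each was flanked by genes above 0. ESCO1, which encodes a cohesin acetyltransferase, read 29.3, 36.5 and 31.5 CPM in mut and 37.6, 33.9 and 38.8 CPM in WT, and its groups overlapped (-0.18, SE 0.09). SNRPD1, the next gene, which encodes a core protein of spliceosomal snRNPs, read 77.7, 80.2 and 92.3 CPM against 66.4, 65.9 and 67.1 CPM, without overlap (0.33, SE 0.07). RELCH at -0.05 stood between PIGN at 0.31 and TNFRSF11A, the receptor RANK, at 0.49. HMSD had the lowest value, -0.51 with an SE of 0.42, from 21 mut and 35 WT counts, at which a difference of this size was not detectable.

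ZNF521 and ZNF519 were the 2 coding genes whose mut libraries all lay below the WT libraries. ZNF521, a zinc finger transcription factor, read 12.3, 14 and 14.2 CPM in mut and 17.3, 15.7 and 16.2 CPM in WT (-0.28, SE 0.11, edgeR adjusted p = 0.0624). For ZNF519 the SE was 0.10 and the edgeR adjusted p 0.0638. Neither was called, although ZNF519 was called lower without WT replicate 2 (-0.30, edgeR adjusted p = 0.0475) and ESCO1 without mut replicate 2 (-0.27, edgeR adjusted p = 0.0401). TCF4, a helix-loop-helix transcription factor, read 87.4, 103 and 103 CPM in mut and 106, 95.4 and 113 CPM in WT, with overlap (-0.09, SE 0.07). CDH7, a cadherin, and ANKRD12, an ankyrin repeat gene, stood at -0.21 and -0.17 with overlapping libraries.

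The size of the difference varied little with the length or the level of a gene. The median log2 fold change was 0.33 in 41 coding genes that span up to 30 kb, 0.29 in 73 genes of 30 to 100 kb and 0.27 in 70 longer genes. On other chromosomes the same classes had medians of 0.04, -0.04 and -0.11, so longer genes were lower there too. Spearman's rho between log2 fold change and span was -0.15 over the 184 genes and -0.24 over coding genes elsewhere, across genes that share the same libraries and are not independent. Genes of chromosome 18 were longer, with a median span of 67.3 kb against 33.1 kb, and after a trend on span was removed their median was 0.35. By level, genes under 10 CPM, at 10 to 50 CPM and at 50 CPM or more had medians of 0.31, 0.27 and 0.30, of which 7 of 32, 48 of 81 and 58 of 71 were called higher. The median hardly moved between these classes while the share called went up with the level. Neighbouring coding genes resembled each other weakly (Spearman's rho 0.16, a description over pairs that share libraries). The 61 genes that overlap no other annotated gene had a median of 0.28 and the other 123 of 0.29.

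The coding genes are next described by the roles of their products, in 10 lists of 151 genes in all, 129 of them tested. Over those lists 83 genes were called higher and 0 lower, beside 61.4% called higher over all 184 tested coding genes of the chromosome and 13% over all genes, and the count of each list is to be read against the first of these shares. The medians ran from 0.18 to 0.39, all above the -0.01 of all genes tested.

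**Figure D4:**
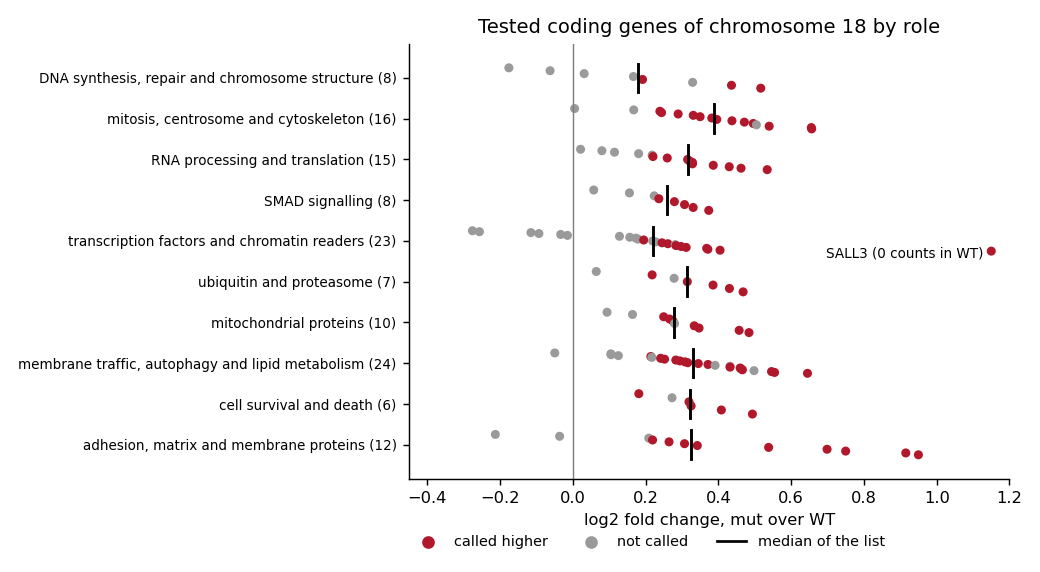
Log2 fold change of mut over WT (horizontal axis) for the tested coding genes of chromosome 18 in 10 role lists (vertical axis, number tested in brackets), red where called higher and grey where not. The black bars, list medians from 0.18 to 0.39, all lie to the right of 0, and SALL3 is drawn at the right edge because WT had 0 counts.

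Of 8 genes of DNA synthesis, repair and chromosome structure 3 were called higher, and the median of the list, 0.18 on the log2 scale, was the lowest of the 10. TYMS, thymidylate synthase, stood at 79.8, 76.3 and 78.5 CPM in mut and 63.3, 58.0 and 51.7 CPM in WT libraries, without overlap (0.44, SE 0.07). SMCHD1, a chromatin protein of the inactive X chromosome, stood at 224, 278 and 261 CPM against 230, 207 and 232 CPM. Its groups overlapped because mut replicate 1 was below 2 of the WT libraries, and its call (0.19, edgeR adjusted p = 0.0397) was lost in 6 of 13 alternatives, among them DESeq2 and the fits without mut replicate 2, mut replicate 3, WT replicate 1 or WT replicate 2, with adjusted p up to 0.221. RBBP8, which encodes the DNA end resection factor CtIP, stood at 0.03 with overlapping libraries (79.3, 89.4 and 88.0 against 81.9, 81.3 and 88.5 CPM).

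The list of mitosis, centrosome and cytoskeleton had the highest median, 0.39, and 13 of its 16 tested genes were called higher. MYL12B, a regulatory light chain of nonmuscle myosin, read 129, 124 and 122 CPM in mut and 94.1, 93.8 and 97.1 CPM in WT (0.40, SE 0.06). Its near-identical neighbour MYL12A, at 0.66, makes the split of reads between the pair uncertain. RTTN, a centriole protein, read 79.5, 88.7 and 86.3 CPM against 73.4, 68.3 and 73.6 CPM (0.24, SE 0.07). Both had mut libraries wholly above WT, and in this list 15 of 16 genes did, all but ROCK1. The same held for 127 of the 184 tested coding genes of the chromosome and for 19.4% of all genes tested.

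In RNA processing and translation 10 of 15 tested genes were called higher (median 0.32). TXNL4A, a component of the U5 snRNP, read 118, 110 and 118 CPM in mut and 84.6, 77.9 and 76.4 CPM in WT (0.53, SE 0.07). RPRD1A, which binds the tail of RNA polymerase II, read 156, 169 and 155 CPM against 133, 120 and 131 CPM (0.32, SE 0.06), and ELP2, a subunit of the Elongator complex, 101, 110 and 112 CPM against 83.3, 78.2 and 85.5 CPM (0.39, SE 0.07). All 3 were without overlap. NARS1, the cytoplasmic asparaginyl-tRNA synthetase, was among the most counted genes of the chromosome and was not called, with 197, 212 and 208 CPM against 197, 180 and 194 CPM (0.11, SE 0.06).

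SMAD proteins carry signals from TGF-beta and BMP receptors to the nucleus, SMAD4 being the shared partner of receptor-activated SMADs such as SMAD2. Of 8 genes of this pathway 5 were called higher (median 0.26). SMAD2 stood at 144, 171 and 165 CPM in mut and 134, 121 and 134 CPM in WT (0.31, SE 0.07). SMAD4 stood at 103, 114 and 110 CPM against 90.3, 82.0 and 87.0 CPM (0.33, SE 0.07). Neither gene's groups overlapped, and the pair differed by 1.24-fold and 1.26-fold. TWSG1, a secreted BMP-binding protein, stood at 0.24 (65.8, 71.9 and 72.0 against 59.6, 54.0 and 65.4 CPM), without overlap, and its call was lost in 5 of 13 alternatives. PIAS2, a SUMO ligase, stood at 0.16 and was not called, its libraries overlapping. It was called higher in 2 of 13 alternatives.

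Transcription factors and chromatin readers were called higher in 10 of 23 tested genes (median 0.22). They held 6 of the 18 genes below 0: ZNF519, ZNF521, ZSCAN30, TCF4, ZNF407 and TSHZ1. Those 18 are out of 184 tested coding genes of the chromosome, and elsewhere 6265 of 11981 coding genes were below 0. ZSCAN30 and ZNF407 were close to 0, at -0.02 and -0.03, and none of the 6 was called. SALL3, a zinc finger transcription factor of the spalt family, was counted at 3.68, 4.35 and 4.83 CPM in the mut libraries and at 0 in each WT library. With 112 mut counts against 0, and a floor of 3 counts over the WT group, its level was at least 43.6-fold higher in mut. Having no WT read, it could pass the filter on low counts only through the mut libraries. The direction of its difference was thus set by the filter, and its call is no further result. ZNF24, a repressor with a SCAN domain, read 166, 175 and 164 CPM in mut and 146, 125 and 145 CPM in WT (0.28, SE 0.07). ADNP2, a homeobox zinc finger gene near the q end, read 99.5, 107 and 106 CPM against 91.8, 90.3 and 90.8 CPM (0.19, SE 0.06, edgeR adjusted p = 0.0237), a call lost in 7 of 13 alternatives. SS18, a subunit of BAF chromatin remodelling complexes, was without overlap and not called (0.16, edgeR adjusted p = 0.0735). It was called higher in 3 of 13 alternatives.

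In the ubiquitin and proteasome list 5 of 7 tested genes were called higher (median 0.31). MIB1, a ubiquitin ligase that acts on Notch ligands, read 166, 181 and 175 CPM in mut and 142, 132 and 147 CPM in WT (0.31, SE 0.06). RNF138, a ubiquitin ligase of DNA repair, read 157, 165 and 162 CPM against 130, 109 and 112 CPM (0.47, SE 0.07). PSMG2, a chaperone of proteasome assembly, read 52.1, 47.8 and 49.4 CPM against 37.7, 38.2 and 34.5 CPM (0.43, SE 0.08). In all 3 the mut libraries were above the WT libraries.

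Of 10 genes of mitochondrial proteins 7 were called higher (median 0.28). ATP5F1A, the alpha subunit of ATP synthase, had the most counts on the chromosome, with 971, 955 and 935 CPM in mut and 681, 699 and 665 CPM in WT libraries. The groups were far apart relative to their spread, at 954 ± 18 and 682 ± 16.7 CPM (SD, n = 3; log2 fold change 0.48, SE 0.05). ACAA2, a thiolase of fatty acid oxidation, read 81.6, 78.0 and 76.3 CPM against 68.0, 64.9 and 65.6 CPM (0.25, SE 0.07). ME2, the mitochondrial malic enzyme, read 124, 126 and 128 CPM against 119, 107 and 113 CPM. It had no overlap and was not called (0.16, SE 0.06, edgeR adjusted p = 0.0543). In 5 of 13 alternatives it was called higher.

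Genes of membrane traffic, autophagy and lipid metabolism were called higher in 16 of 24 cases (median 0.33). LMAN1, a cargo receptor between the endoplasmic reticulum and the Golgi, stood at 226, 259 and 246 CPM in mut and 210, 200 and 209 CPM in WT (0.24, SE 0.06). DYM, a Golgi protein, stood at 98.4, 106 and 110 CPM against 94.5, 94.0 and 99.5 CPM, and RELCH, which acts in endosomal cholesterol transport, at 71.0, 78.1 and 73.1 CPM against 76.6, 72.1 and 82.0 CPM. LMAN1 was without overlap, and the libraries of DYM (0.12) and RELCH overlapped. DYM was not called, and 2 of 13 alternatives called it higher.

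Among genes of cell survival and death 5 of 6 tested were called higher (median 0.32). PMAIP1, which encodes the proapoptotic protein NOXA, read 166, 180 and 187 CPM in mut and 155, 161 and 154 CPM in WT, without overlap (0.18, SE 0.06, edgeR adjusted p = 0.0284), a call lost in 7 of 13 alternatives. MALT1, a paracaspase of NF-kappaB signalling, read 65.1, 71.2 and 71.5 CPM against 53.4, 49.6 and 53.9 CPM (0.41, SE 0.07). PHLPP1, a phosphatase that acts on AKT, and TNFRSF11A were also called, at 0.32 and 0.49, and neither had overlapping groups.

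Of 25 genes of adhesion, matrix and membrane proteins, 13 were not tested for lack of reads, among them the desmosomal cadherins DSC1, DSG1, DSG3 and DSG4, and 9 of the 12 tested were called higher (median 0.32). COLEC12, a scavenger receptor of the collectin family, read 55.9, 56.7 and 56.1 CPM in mut and 28.9, 28.8 and 32.2 CPM in WT (0.91, SE 0.08). LAMA1, the laminin alpha-1 chain of basement membranes, read 62.3, 62.6 and 67.7 CPM against 36.9, 37.7 and 40.2 CPM (0.75, SE 0.07). EMILIN2, an extracellular glycoprotein, had 58 mut and 35 WT counts (0.95, SE 0.31, edgeR adjusted p = 0.0258), a call lost in 5 of 12 alternatives. The junction genes CDH2 (N-cadherin), DSC3 and DSG2 differed less, at 0.22, 0.34 and 0.31. CDH2 read 87.9, 101 and 91.4 CPM against 79.4, 78.2 and 83.3 CPM and its call was lost in 3 of 13 alternatives. COLEC12, LAMA1, EMILIN2 and the 3 junction genes all had mut libraries wholly above WT. CCBE1, a matrix protein of lymphatic development that is in none of the lists, had 3.24, 2.58 and 3.22 CPM against 1.86, 1.10 and 0.983 CPM (1.2, SE 0.28), also without overlap.

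The noncoding genes were few after the filter and more varied than the coding genes. Their median log2 fold change was 0.25 over 21 tested genes, with an interquartile range of 0.66 and a median SE of 0.27, against a median of 0.04 and an interquartile range of 0.55 over 1304 noncoding genes elsewhere. Without mut replicate 1 or mut replicate 2 the median was 0.43 or 0.44. Of the 21, 7 were called higher and 1 lower, 15 were above 0, and the mut libraries lay wholly above WT in 10 and wholly below in 2. Among noncoding genes of other chromosomes 12.3% were called higher and 8.67% lower. Their mut libraries lay wholly above WT in 17.9% and wholly below in 15.4%. DESeq2 called 5 higher and 0 lower on chromosome 18, and its shares elsewhere are not given here. By class, 3 of 12 long noncoding RNA (lncRNA) genes, 3 of 4 transcribed pseudogenes, 0 of 4 other pseudogenes and the 1 small nucleolar RNA gene were called higher.

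KC6, a lncRNA gene of the q arm that lies between the tested coding genes KIAA1328 and PIK3C3, was counted at 1.56, 2.58 and 2.41 CPM in mut and at 0 in each WT library. Its 57 mut counts against 0 put it at least 22.2-fold higher, with the same floor of 3 counts. It and SALL3 were the 2 tested genes of the chromosome with no WT read. Both are counted among the genes called higher, and both could pass the filter on low counts only through the mut libraries. The direction of the difference of KC6, like that of SALL3, was thus set by the filter. LINC00667, a lncRNA gene on the p arm, read 22.0, 25.4 and 23.2 CPM against 18.2, 15 and 18.1 CPM, without overlap (0.47, SE 0.10), above the p arm coding median of 0.36.

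At the p end stood ROCK1P1, a partial copy of ROCK1, with 2.90, 3.41 and 4.37 CPM in mut and 1.14, 1.25 and 1.47 CPM in WT (1.47, SE 0.27). Its mut libraries were all above WT while those of ROCK1 overlapped, and the assignment of reads between such copies is uncertain. TYMSOS, which runs antisense to TYMS, had 4.24, 3.52 and 2.76 CPM against 0.931, 1.25 and 1.84 CPM (1.41, SE 0.28). No source used here gives the strand setting of the counting, so reads of TYMS and TYMSOS may not be parted. ZNF271P, a transcribed zinc finger pseudogene, read 39.9, 44.9 and 45.3 CPM against 37.5, 35.1 and 39.3 CPM (0.22, SE 0.08, edgeR adjusted p = 0.043), a call lost in 7 of 13 alternatives.

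The noncoding genes below 0 included MIR924HG, the host gene of a microRNA and the 1 gene of the chromosome called lower. It read 3.46, 5.28 and 3.91 CPM in mut and 6.10, 6.42 and 6.14 CPM in WT libraries, without overlap (-0.57, SE 0.18, edgeR adjusted p = 0.0204). The call was lost in 5 of 13 alternatives, over which the adjusted p ran from 0.00573 to 0.121, namely DESeq2, removal of the span trend, and the fits without mut replicate 1, mut replicate 3 or WT replicate 2. PARD6G-AS1, antisense to PARD6G at the q end, read 4.02, 3.29 and 3.91 CPM against 4.65, 5.72 and 4.55 CPM, lower in every mut library and not called (-0.43, SE 0.19), while PARD6G itself was higher. Without the strand setting the reads of PARD6G and PARD6G-AS1 may not be parted either. RBFADN, next to it, stood at -0.33 with overlapping libraries. ZNF407-AS1 stood at 0.18, its mut libraries wholly above WT, and was not called.

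The small RNA libraries were not used in choosing the chromosome and give a separate measurement of it. They held 493314 to 1219718 fragments, and chromosome 18 had 202 of the 10796 annotated features. Of these 190 had no fragment in any library, 12 had some and 4 had enough to be tested. Box C/D small nucleolar RNAs (snoRNAs) guide 2′-O-methylation of ribosomal RNA, box H/ACA snoRNAs guide pseudouridylation, and both are mostly processed from introns of host genes. The SNORD58 cluster within the span of RPL17 held 99.8% of the annotated small RNA fragments of the chromosome. By edgeR's test 0 of the 4 features were called, 0 had an unadjusted p under 0.05 and limma also called 0, beside 0.179% of the 559 annotated features tested over the genome.

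SNORD58A (start 49491283, end 49491347, minus strand) was measured at 13181, 11813 and 18134 FPM (fragments scaled to library depth) in mut and 11581, 12217 and 9518 FPM in WT. The groups overlapped, since mut replicate 2 was below WT replicate 2 (log2 fold change 0.44, SE 0.21, edgeR adjusted p = 0.699). SNORD58B (start 49491664, end 49491729) was measured at 3894, 3290 and 5327 FPM against 4008, 4441 and 3556 FPM, again with overlap (0.13, SE 0.19, edgeR adjusted p = 0.873). Another feature, unnamed, of the cluster (start 49489245, end 49489308) stood at 0.24 (SE 0.18). Mut replicate 3 was the highest library for all 3 of them. RPL17, a large-subunit ribosomal protein gene whose introns hold the cluster, was at 0.22 in total RNA and was not called.

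SNORA37, the remaining tested snoRNA (start 54222284, end 54222412), is the 1 gene of the chromosome tested in both assays. In total RNA it read 4.47, 7.16 and 7.01 CPM in mut and 4.14, 3.13 and 2.83 CPM in WT, without overlap (0.88, SE 0.21). In small RNA it read 18, 50.01 and 39.7 FPM against 23.3, 32.4 and 42.7 FPM, with wide overlap (0.25, SE 0.37, edgeR adjusted p = 0.872). The difference between the assays was not tested.

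Of all annotated small RNA fragments, 2.70%, 2.50% and 4.05% lay on chromosome 18 for mut and 2.60%, 2.83% and 2.30% for WT. The groups overlapped, and mut replicate 3 alone stood high. The means were 3.08% ± 0.842 and 2.57% ± 0.264 (SD, n = 3). A two-sided exact permutation test over libraries gave p = 0.5, where the smallest possible p is 0.1, so 3 libraries against 3 could not pass 0.05 at any spread. The share rests almost wholly on the SNORD58 cluster, which held 99.8% of these fragments.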

How the data were processed

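The members, the role lists and the marker lists were chosen with earlier results of these data known. The authors deposited raw read counts per Ensembl gene for the total RNA libraries. For the small RNA libraries they deposited fragment counts, FPM (a signal scaled to library depth) and FPKM (FPM per kb of feature), per the file headers. In the submitters' processing notes stand DESeq2 1.8.2, FastQC 0.11.3, HTSeq 0.6.1, SAMtools 1.2-10, STAR 2.4.0 and CASAVA 1.8.2, with no role given, and the build hg38. No source used here gives the annotation version or the strand setting. Reads in several genes are not in the gene counts. Reads not assigned to a gene, 57.8% to 63.2% of the deposited total, were left out.

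Gene positions and types came from RefSeq GRCh38.p14, matched by symbol. Coding means a RefSeq protein-coding gene. Counts were fitted with edgeR 4.0.16 in R 4.3.3 (TMM scaling, filterByExpr, quasi-likelihood test, Benjamini-Hochberg over all 14409 genes at 0.05), 3 mut against 3 WT libraries. CPM are TMM-scaled, and log2 differences of single libraries used a prior count of 2. Small RNA annotated features were fitted alike, with limma 3.58.1 on log2(FPKM + 1) and DESeq2 1.42.0 for total RNA as alternatives. On simulated data for the total RNA comparison (14419 genes) 8%, 54%, 78% and 98% of genes changed by 1.25, 1.5, 2 and 4-fold were recovered. The simulation gave all genes the same fixed dispersion and changed only 50 genes at each fold, far fewer than were called in the data. Its shares are therefore not the recovery rates of the real comparison. No replicate pair agreed within sampling noise (chi-square per degree of freedom 1.87 to 3.97 in total RNA). The 0 floor of 3 counts over a group covers counting error only.

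Genes named are DIS3L2, the 4 an earlier account named, the 10 coding genes with the most CPM, the 6 largest and 6 smallest coding differences, the first and last of each arm, the 5 noncoding genes with the most CPM with the 3 largest and 3 smallest noncoding differences, and up to 4 of each role list by CPM. Flanking genes, runs, genes without reads and the 18 genes below 0 were named after their values were seen. A further blood marker is not reported here. Alternatives were other scalings, filters and windows, a span trend, a replicate block, and leaving out overlapping genes or 1 library.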

Additional observations from a re-analysis of the deposited data

How the results depend on the processing

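Over all alternatives run, the coding median of chromosome 18 stayed between 0.26 and 0.35 and the count called higher between 87 and 128. Shares called over all genes under the alternatives are not given here, so counts under them lack a background. With DESeq2, with a mean CPM of at least 5 and without a filter on low counts 92, 113 and 102 coding genes were called higher. With the span trend removed the coding median was 0.35. Without a filter the noncoding median was 0.36 and the highest window median 0.36, and with overlapping genes left out the highest window median was 0.33 and the interquartile range 0.15. The noncoding genes called lower were 0 with DESeq2 and with the span trend removed, and the noncoding genes called higher were 2 at a mean CPM of at least 5, which tests 4 of them. Leaving out 1 library at a time gave 87 to 116 coding genes higher, 0 to 1 lower, 0 to 1 noncoding genes lower and a noncoding median of 0.23 to 0.44; the cause was not tested. The coding genes lower were ZNF519 without WT replicate 2 and ESCO1 without mut replicate 2. Of 46 named genes called, 9 lost the call under at least 1 alternative, and 6 of 18 named genes not called gained one. Those 6 were DYM, ME2, PIAS2 and SS18, called higher, and ESCO1 and ZNF519, called lower. Labels share replicate numbers across groups but do not say that they pair libraries, and deviations of same-numbered libraries were correlated at -0.0891, -0.0732 and 0.0321; a replicate block gave 104 coding genes higher and 0 lower, with a median of 0.29. Among the named genes the replicate block ended the calls of ADNP2, PMAIP1, SMCHD1 and ZNF271P. In small RNA 0 features of the chromosome were called in any alternative, and without a filter their median log2 fold change was -0.22 against 0.25. Low counts limit HMSD, KC6, SALL3 and most noncoding genes.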
